A study of Mus musculus with 4 samples.

Results

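Emp1, Emp2, Emp3 and Pmp22 form a small family of tetraspan membrane proteins, the epithelial membrane proteins and peripheral myelin protein 22, and were followed here in basal epithelial cells of the mouse ventral prostate. The members were matched by gene symbol in the deposited table, where each of the 4 symbols had 1 row among 49671 genes. The family was selected on the CPM of Emp1 itself, which was higher in both duct libraries, so every tip and duct value of the members is a description and carries no test. All 4 members passed the filter on low values, a mean of at least 1 CPM (reads per 1000000 reads of a library), which left 17865 genes.

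The study concerns collagen signalling and matrix stiffness in the potency of glandular epithelial stem cells. Lobes of 20 male mice were divided by chopping into tips, the distal ends of the gland, and ducts, and basal cells were sorted as high for EpCAM and CD49f after removal of CD45+, CD31+ and CD140a+ cells. There were 2 libraries from tips (tip 1 and tip 2) and 2 from ducts (duct 1 and duct 2). No treatment is named for either group, and neither strain nor genotype is stated. The titles give postnatal day 13 and the age field days 10 to 12. Groups were read from the titles, because every library carries the word tip in its cell type field. Whether libraries of 1 group stem from different animals is not stated, and p-values therefore measure only a spread that may be technical.

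Proteins of this family sit in the plasma membrane and in intracellular membranes and belong to the same superfamily as the claudins of tight junctions. Pmp22 is best known as a component of compact peripheral myelin made by Schwann cells, and changes in its gene dosage cause inherited neuropathies, but it is also made by fibroblasts and epithelia. The epithelial membrane proteins are found in many epithelia, where they have been linked to integrin trafficking, caveolae and cell adhesion.

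The genes lie on different chromosomes (GRCm38, GENCODE M21). Emp1 is on chromosome 6 at 135362545 to 135383173 (plus strand), Emp2 on chromosome 16 at 10281749 to 10313968 (minus strand), Emp3 on chromosome 7 at 45918023 to 45921404 (minus strand) and Pmp22 on chromosome 11 at 63128982 to 63159547 (plus strand). No other annotated gene overlaps any of them on either strand. Emp1, Emp3 and Pmp22 have 5 annotated transcript starts each and Emp2 has 2, and counts per gene do not tell which start was used. The promoter windows below, from RefSeq on GRCm38.p6, run from 250 bases before to 50 bases after a start and are shown because the family's reads were so unequally divided among the members. All 4 members matched the table. Capitals mark every match, on either strand, to the AP-1 motif TGANTCA, the TEAD motif GGAATG, the SP1 motif GGGCGG or the TATA motif TATAAA. The windows are Emp1 chr6:135362681-135362980 (plus strand), Emp2 chr16:10313919-10314218 (minus), Emp3 chr7:45921377-45921676 (minus), and for Pmp22 its most upstream start, chr11:63128732-63129031 (plus), and the next, chr11:63131207-63131506 (plus).
Emp1: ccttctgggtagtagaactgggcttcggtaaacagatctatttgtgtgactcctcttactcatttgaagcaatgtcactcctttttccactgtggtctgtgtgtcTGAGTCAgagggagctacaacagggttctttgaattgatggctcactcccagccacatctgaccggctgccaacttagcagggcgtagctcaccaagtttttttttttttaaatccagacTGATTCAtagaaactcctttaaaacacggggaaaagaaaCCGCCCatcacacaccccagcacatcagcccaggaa
Emp2: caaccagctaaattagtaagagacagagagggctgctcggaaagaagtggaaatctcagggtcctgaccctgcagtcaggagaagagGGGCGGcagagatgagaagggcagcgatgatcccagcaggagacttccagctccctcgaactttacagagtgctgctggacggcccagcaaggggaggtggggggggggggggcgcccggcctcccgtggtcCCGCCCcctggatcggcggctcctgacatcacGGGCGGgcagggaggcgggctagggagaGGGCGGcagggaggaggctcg
Emp3: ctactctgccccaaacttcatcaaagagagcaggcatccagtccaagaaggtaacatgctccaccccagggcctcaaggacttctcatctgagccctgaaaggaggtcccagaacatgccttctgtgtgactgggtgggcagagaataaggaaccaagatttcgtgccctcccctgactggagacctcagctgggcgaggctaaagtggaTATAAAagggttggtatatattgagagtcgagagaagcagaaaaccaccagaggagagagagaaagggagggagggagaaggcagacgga
Pmp22 upstream start: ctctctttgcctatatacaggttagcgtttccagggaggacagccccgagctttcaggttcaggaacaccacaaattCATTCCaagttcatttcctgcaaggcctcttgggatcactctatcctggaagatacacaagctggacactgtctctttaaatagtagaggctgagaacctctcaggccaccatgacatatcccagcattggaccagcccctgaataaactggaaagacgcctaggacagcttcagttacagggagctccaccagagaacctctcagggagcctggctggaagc
Pmp22 next start: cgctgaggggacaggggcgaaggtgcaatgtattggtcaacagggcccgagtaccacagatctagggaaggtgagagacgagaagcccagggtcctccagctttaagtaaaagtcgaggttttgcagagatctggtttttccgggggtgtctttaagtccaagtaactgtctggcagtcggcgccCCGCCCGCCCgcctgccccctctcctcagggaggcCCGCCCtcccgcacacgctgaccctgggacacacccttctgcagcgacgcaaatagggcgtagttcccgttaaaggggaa

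The Emp1 window shown held 2 AP-1 motifs, TGAGTCA beginning at position -145 and TGATTCA at position -25 from the start, and 1 SP1 motif at position 15. The other of the 2 Emp1 windows in the table, chr6:135367243-135367542 (plus), held none of the 4 motifs. Of 2 Emp3 and 4 Pmp22 windows, 1 and 2 are shown. At least 1 AP-1 motif was present in 7.81% of 32851 promoter windows of 300 bases, and 2 or more in 0.460%. The Emp2 window held 4 SP1 motifs and no AP-1, TEAD or TATA motif, and the Emp3 window shown held 1 TATA motif at position -40. The other Emp3 window held none of the 4 motifs. The upstream Pmp22 window held 1 TEAD motif at position -173, and the next one 3 SP1 motifs, of which the first and second overlap. SP1 motifs were present in 35.7% of windows, TEAD in 14.7% and TATA in 13.6%. A match is a string of letters and was not shown to be bound in these cells.

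The libraries themselves were compared first, because the ducts stood far apart in markers of other cells. Recovered depth was 1439004 to 1742531 reads per library, and a gene with 0 reads could lie as high as 3 reads, which is 1.72 to 2.08 CPM. The basal markers Krt5, a basal keratin (650.5 and 513 CPM in tip 1 and tip 2, 490 and 148 CPM in duct 1 and duct 2), and Trp63, the basal transcription factor p63 (830 and 281 against 263 and 136 CPM), were present in all 4. Pdgfra, which encodes the CD140a used to remove stromal cells, still measured 192.5 and 231 CPM in the tips and 42.1 and 650 CPM in the ducts. The 22 fibroblast markers summed to 7271 and 14246 CPM in the tips and to 3538 and 24336 CPM in the ducts, and 21 of 22 were higher in duct 2 than in duct 1. Counts of list genes higher, lower or highest in duct 2, here and below, were not made over all genes. The 14 basal markers summed to 11505 and 11190 CPM in the tips and 16887 and 6660 CPM in the ducts. The 16 luminal markers summed to 2305 and 2581 CPM in the tips and 3827 and 1720 CPM in the ducts, and the 12 smooth muscle markers to 2083 and 3631 against 906 and 3651 CPM. Duct 2 also held 311 reads of Ins2, an insulin gene, against 0 in the other 3 libraries. In such bulk samples, fewer cells of a type and less RNA per cell cannot be told apart.

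Emp1, a membrane protein of epithelia that is induced in squamous differentiation, was by far the most abundant member in every library, and it measured 305 and 607 CPM in the tips and 1354 and 1534 CPM in the ducts. Both tip libraries were low and both duct libraries high, with no overlap, as for 11.1% of all genes tested. These values rest on 439, 1058, 2123 and 2328 reads in tip 1, tip 2, duct 1 and duct 2, so counting error was small beside the differences. The group means were 456 ± 214 CPM in the tips and 1444 ± 127 CPM in the ducts (SD, n = 2 each), 3.17-fold higher in duct, and the log2 fold (tip minus duct, on the log2(CPM + 1) scale) was -1.74 ± 0.35 (SE). The median gene stood at 0.20 on the same scale, which puts Emp1 1.94 below it. The tip libraries also differed from each other: Emp1 was 1.99-fold higher in tip 2 than in tip 1 (95% counting interval 1.78 to 2.23), and the smallest gap between the groups, duct 1 over tip 2, was 2.23-fold (2.07 to 2.403). These intervals cover counting error only and compare libraries, not conditions. Duct 2 exceeded duct 1 by 1.13-fold (1.07 to 1.20). Without tip 1 the log2 fold was -1.25, and without tip 2 it was -2.24.

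The ducts had similar Emp1 although their other markers differed. Set against the summed basal markers of the same library, Emp1 stood at 2.65 and 5.43 CPM per 100 CPM of basal markers in the tips and at 8.02 and 23.0 in duct. Set against the summed fibroblast markers, it stood at 4.20 and 4.26 CPM per 100 CPM in the tips and at 38.3 and 6.30 in duct. Both scales were added with the data in view and use the Emp1 values by which the family was selected, so they are given as values only. The log2 fold was -1.84 when libraries were scaled to the basal sum and -1.87 when scaled to the fibroblast sum.

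**Figure D1:**
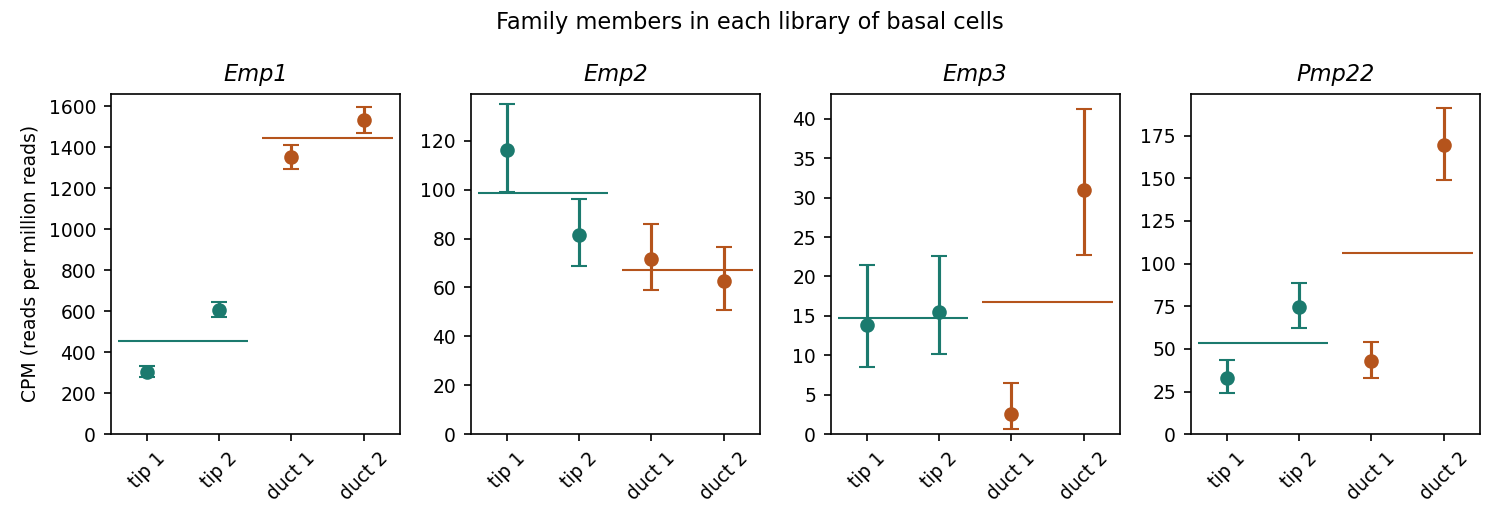
CPM of Emp1, Emp2, Emp3 and Pmp22 (vertical axes, linear and starting at 0) in the 2 tip and 2 duct libraries (horizontal axes). Points are libraries, bars are exact Poisson 95% intervals of the reads and horizontal lines are group means; Emp1 sits at 305 and 607 CPM in the tips and at 1354 and 1534 CPM in the ducts, while Emp3 and Pmp22 differ most between the ducts.

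Emp2, which is known for regulating integrin and caveolin levels at the cell surface, ran the other way. It measured 116 and 81.5 CPM in the tips and 71.5 and 62.6 CPM in the ducts. Both tip libraries were above both duct libraries, as for 28.5% of all genes tested, but tip 2 exceeded duct 1 by only 1.14-fold, with a counting interval of 0.884 to 1.48 that includes no difference. The means were 98.8 ± 24.5 and 67.03 ± 6.26 CPM (SD, n = 2), and the log2 fold was 0.53 ± 0.31 (SE), 0.34 above the median gene. With TMM scaling, tip 2 and duct 1 came to 79.04 and 74.9 CPM. With median-ratio scaling they came to 78.02 and 75.7 CPM. Against the summed basal markers the groups overlapped, at 1.01 and 0.728 CPM per 100 CPM in the tips and 0.423 and 0.940 in duct.

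The order of the libraries was exactly opposite in Emp1 and Emp2. From low to high, Emp1 ran tip 1, tip 2, duct 1, duct 2, an order shared by 3.05% of the genes tested, and Emp2 ran the reverse, as 9.20% of genes did. The ratio of Emp1 to Emp2 reads, which does not depend on how libraries are scaled, was 2.63 (95% counting interval 2.19 to 3.16) in tip 1, 7.45 (6.25 to 8.94) in tip 2, 18.96 (15.7 to 23.1) in duct 1 and 24.5 (19.96 to 30.4) in duct 2. Because Emp1 chose the family, the direction of this ratio between tip and duct is a description and supports nothing. Within the tips, the intervals of tip 1 and tip 2 did not overlap.

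Emp3, which is abundant in leukocytes and mesenchymal cells, was the lowest member in reads and did not separate the groups. It measured 13.9 and 15.5 CPM in the tips and 2.60 and 31.0 CPM in the ducts, so that the tip libraries lay between the ducts. The reads behind these values were 20, 27, 4 and 47. Duct 2 exceeded duct 1 by 12.1-fold, with a wide counting interval of 4.44 to 46.4, whereas the tips differed by 1.11-fold (0.602 to 2.10). The means were 14.7 ± 1.13 CPM in the tips and 16.8 ± 20.1 CPM in the ducts (SD, n = 2), slightly higher in duct, whereas the log2 fold was 0.55 ± 1.07 (SE), higher in tip. The log2 fold was -1.03 without duct 1 and 2.12 without duct 2.

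Pmp22 also differed most between the ducts. It measured 32.7 and 74.7 CPM in the tips and 42.8 and 169 CPM in the ducts, from 47, 130, 67 and 257 reads. Duct 2 was the highest library, and duct 1 lay between the tips. The ratio of duct 2 to duct 1 was 3.96 (3.02 to 5.27) and that of tip 2 to tip 1 was 2.28 (1.62 to 3.26), so both groups varied beyond counting error. The means were 53.7 ± 29.7 and 106 ± 89.5 CPM (SD, n = 2) and the log2 fold was -0.77 ± 0.79 (SE). Without duct 2 it was 0.21, without duct 1 -1.75, and without tip 1 -0.19.

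Most fibroblast markers had the same order of libraries as Emp3. The order duct 1, tip 1, tip 2, duct 2 from low to high held for Emp3, for the fibroblast sum and for 15 of the 22 fibroblast markers, against 5.86% of all genes tested. It was not particular to fibroblast markers, since the smooth muscle and endothelial sums ran in the same order. Single markers were counted for this order in the fibroblast list only. Per 100 CPM of fibroblast markers, Emp3 stood at 0.191 and 0.109 CPM in the tips and 0.0735 and 0.127 CPM in the ducts. Pmp22 took another order, with tip 1 lowest, and 0 of the 22 fibroblast markers shared it. Per 100 CPM of fibroblast markers it stood at 0.450 and 0.524 CPM in the tips and at 1.21 and 0.696 CPM in the ducts. The 13 endothelial markers were all highest in duct 2 and summed to 127 and 130 CPM in the tips and 50.7 and 440 CPM in the ducts. The 16 leukocyte markers summed to 274 and 120 CPM in the tips and 105 and 121 CPM in the ducts. The largest part of these sums in every library was Cd3e, a T cell receptor subunit, at 131 and 88.4 CPM in the tips and 61.3 and 68.6 CPM in the ducts. The leukocyte antigen CD45 gene Ptprc was highest in tip 1 (12.6 CPM, against 0.60, 0.65 and 4.65 CPM). The part of stromal, vascular or immune RNA in the Emp3 and Pmp22 values was not tested.

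**Figure D2:**
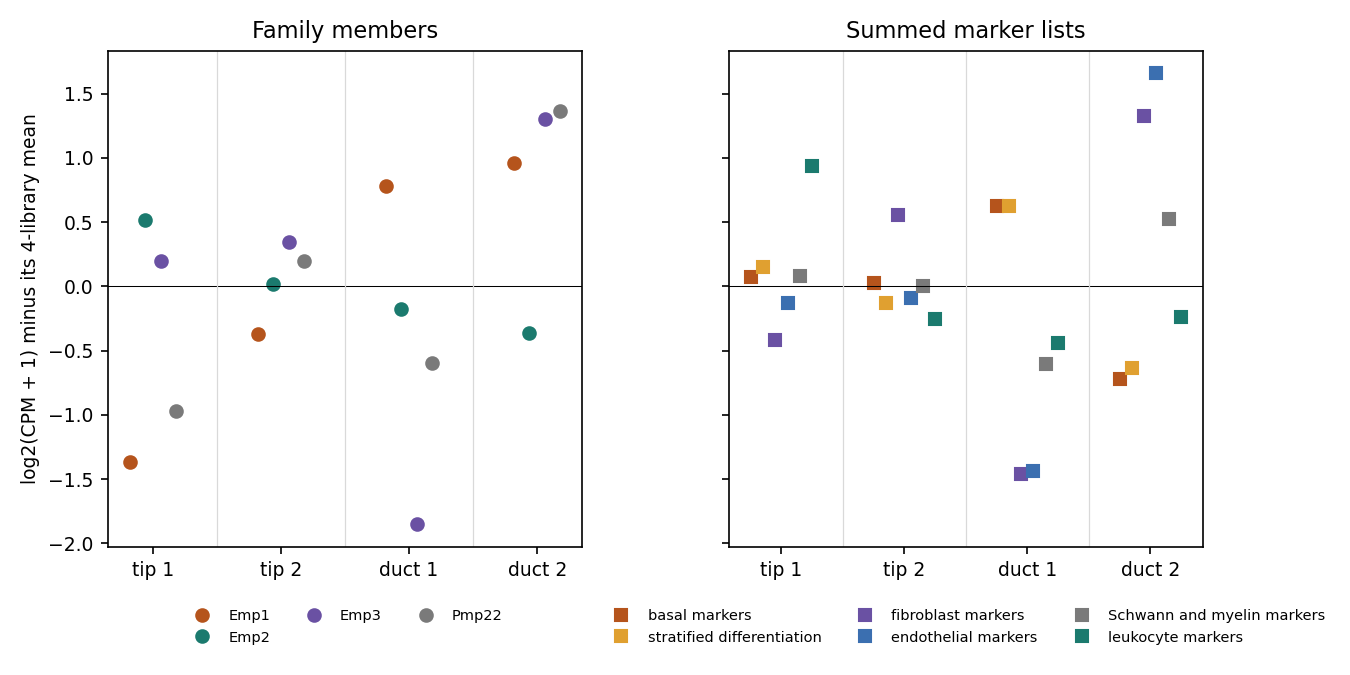
Deviation of log2(CPM + 1) from its mean over the 4 libraries (vertical axis) for the 4 members (left) and for the summed CPM of 6 marker lists (right), by library (horizontal axis). Emp3 and the fibroblast sum are both lowest in duct 1 and highest in duct 2, whereas Emp1 is above its mean in both ducts and the basal sum is above its mean in duct 1 and below it in duct 2.

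Because Pmp22 is a myelin gene, Schwann cell and myelin markers were read beside it. Sox10, the transcription factor that defines Schwann cells, measured 5.60 and 2.90 CPM in the tips and 3.2 and 24.4 CPM in the ducts. The list of 18 genes summed to 388 and 368 CPM in the tips and 242 and 529 CPM in the ducts, and 10 of its 16 tested members were highest in duct 2. Of those 16, 2 had both tips above both ducts, beside 28.5% of all genes tested, and 2 had both below, beside 11.1%. Ngfr, a neurotrophin receptor also made by other cells, measured 108 and 77.5 CPM in the tips and 51.05 and 40.2 CPM in the ducts, and Cnp, a myelin-associated phosphodiesterase, 25.8 and 22.4 against 11.5 and 17.2 CPM. Egr2, a regulator of myelination and an immediate early gene, measured 79.95 and 66.0 against 33.2 and 67.2 CPM. Gjb1, a gap junction gene of myelin, had 0 reads in all 4 libraries. The part of Schwann cell RNA in the Pmp22 values was not tested.

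The family's reads as a whole amounted to 468 and 779 CPM in the tips and 1471 and 1797 CPM in the ducts. Emp1 held most of these reads in every library, so its higher CPM in the ducts, by which the family was selected, sets the direction of the sum and lowers the shares of the other members there. Emp1 made up 65.2% (95% Wilson interval 61.6 to 68.7) of the family's reads in tip 1, 77.97% (75.7 to 80.1) in tip 2, 92.1% (90.9 to 93.1) in duct 1 and 85.4% (83.99 to 86.6) in duct 2. Emp2 made up 24.8% and 10.5% in tip and 4.86% and 3.48% in duct. Pmp22 did not follow the groups, at 6.98% and 9.58% in tip and 2.91% and 9.42% in duct. Emp3 was at most 2.97%, in tip 1, and 0.173% (0.0675 to 0.445) in duct 1.

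**Figure D3:**
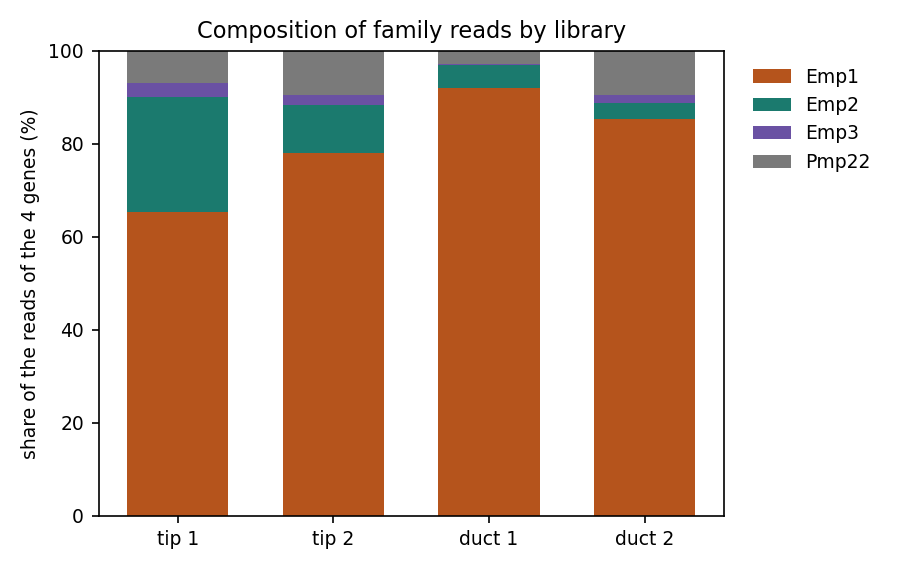
Share of the reads of the 4 genes (vertical axis, percent) that fell to each member in each library (bars). Emp1 takes 65.2% and 77.97% in tip and 92.1% and 85.4% in duct, and the Emp2 share goes from 24.8% in tip 1 to 3.48% in duct 2.

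Levels were compared between members per length of annotated exons, 5935 bases for Emp1, 8644 for Emp2, 1071 for Emp3 and 2354 for Pmp22. On this scale (CPM per kilobase of exons), Emp1 stood at 51.4 and 102 in tip and 228 and 258 in duct, above 96.3% to 99.5% of the tested genes. Pmp22 was second at 31.7 in tip 2, 18.1 in duct 1 and 71.9 in duct 2. In tip 1, Pmp22 at 13.9, Emp2 at 13.4 and Emp3 at 12.98 were nearly level, and the intervals of their reads do not separate them. Emp2 was 9.43 in tip 2 and 8.26 and 7.24 in duct, a lower rank than its reads give, since its annotated exons are the longest. Emp3 stood at 14.5 in tip 2, where its interval overlapped that of Emp2, and ranged from 2.38 in duct 1 to 28.9 in duct 2. Emp1 was first in all 4 libraries.

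The tip and duct comparison was fitted across all genes with limma, and no gene passed an adjusted p of 0.05. The smallest adjusted p was 0.667, and 1326 genes had an unadjusted p under 0.05. On recovered reads edgeR called 0 genes (1058 unadjusted), voom 0 (967) and DESeq2 2 (416). The share of tested genes called was therefore 0% for limma, and 28.5% of tested genes had both tips above both ducts, 11.1% had both below, and the groups were apart for 39.7% in all. With TMM scaling the numbers of genes higher and lower in both tip libraries went from 5099 and 1986 to 3647 and 3217. Of the 4 members, Emp2 was higher and Emp1 lower in both tip libraries, and nothing is read from that count because Emp1 chose the family. Over the other lists, 0 of 137 tested genes passed in limma, edgeR, voom or DESeq2, and 8 had an unadjusted limma p under 0.05. The genes of these lists are therefore given as values.

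Other tetraspan genes of the PMP22 and claudin superfamily, claudins left out, numbered 18 in the list. Of these, 6 passed the filter and 7 had 0 reads in every library, among them the lens gene Lim2. Of the 6, 1 had both tips above both ducts, beside 28.5% of all genes tested, and 1 had both below, beside 11.1%. The median log2 fold was 0.03 (-0.16 with TMM scaling) beside 0.20 (0.03 with TMM scaling) for all genes tested. Cldnd1, a claudin domain protein, measured 84.8 and 127 CPM in the tips and 163 and 144 CPM in the ducts, lower in both tips as Emp1 was. Gsg1l, an auxiliary protein of glutamate receptors, measured 4.90 and 5.20 CPM in the tips and 0.65 and 2.65 CPM in the ducts, from few reads. Tmem47 measured 49.4 and 55.1 CPM in the tips and 21.7 and 65.9 CPM in the ducts, and Cacng7, a calcium channel subunit, 1.4 and 6.35 against 1.3 and 17.8 CPM. Perp, a desmosomal target of p63 named here after its values were seen, was the most abundant of these, at 429.5 and 499 CPM in the tips and 671 and 217 CPM in the ducts, and the groups overlapped.

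Genes of proteins that family members are reported to bind or act on numbered 14, and all were tested. Of these, 0 had both tips above both ducts, beside 28.5% of all genes tested, and 3 had both below, beside 11.1%. The median log2 fold was -0.02, beside 0.20 for all genes. With TMM scaling 4 were lower, as were 3217 of all 17865 genes tested, against 1986 as reported. With quantile scaling 1 was higher and 1 lower, beside 3478 and 2770 of all genes tested. Itgb1, the integrin beta subunit with which Emp2 is linked, measured 641 and 802 CPM in the tips and 834 and 946 CPM in the ducts. Cav2, a caveolin, measured 182 and 146 against 146 and 69.9 CPM, and Itgb5 79.3 and 53.4 against 58.7 and 40.9 CPM. Itgb3 measured 12.6 and 9.80 against 0.65 and 15.2 CPM. Itga6 and Itgb4, whose integrin is reported to bind Pmp22, overlapped between groups, at 1177 and 939 against 1389 and 474 CPM and at 420 and 374 against 518 and 224 CPM. Both were lowest in duct 2, where Pmp22 was highest. This was not particular to these partners: both are also on the basal list, of which 0 of 14 genes were higher in duct 2 than in duct 1.

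Stratified epithelial differentiation genes, the setting in which Emp1 is best known, had the lowest median of the lists. Of 22 genes 14 were tested, and the median was -0.71 against 0.20 for all genes. A negative log2 fold was found for 11 of the 14, beside 36.9% of all genes tested. With TMM scaling it was found for 11 of the 14, beside 8638 of all 17865 genes. Of the 14, 2 had both tips below both ducts, beside 11.1% of all genes tested, and 1 had both above, beside 28.5%. Under each of the 4 other scalings 3 were below. The number below among all 17865 genes also rose, from 1986 to between 2399 and 3433. All 14 were lower in duct 2 than in duct 1. Anxa1, an annexin, measured 75.8 and 112.5 CPM in the tips and 173 and 136 CPM in the ducts. Sprr1a, a cornified envelope precursor, measured 16.7 and 57.4 against 136.5 and 56.7 CPM, and Aqp3, a glycerol and water channel, 0 and 8.05 against 17.9 and 6.60 CPM. Dsc2, a desmosomal cadherin, ran the other way at 223 and 155 against 124 and 56.0 CPM. Emp1 was 1.13-fold higher in duct 2 than in duct 1, whereas the median gene of this list stood at 0.428 of its duct 1 value in duct 2, with 1 CPM added to both.

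**Figure D4:**
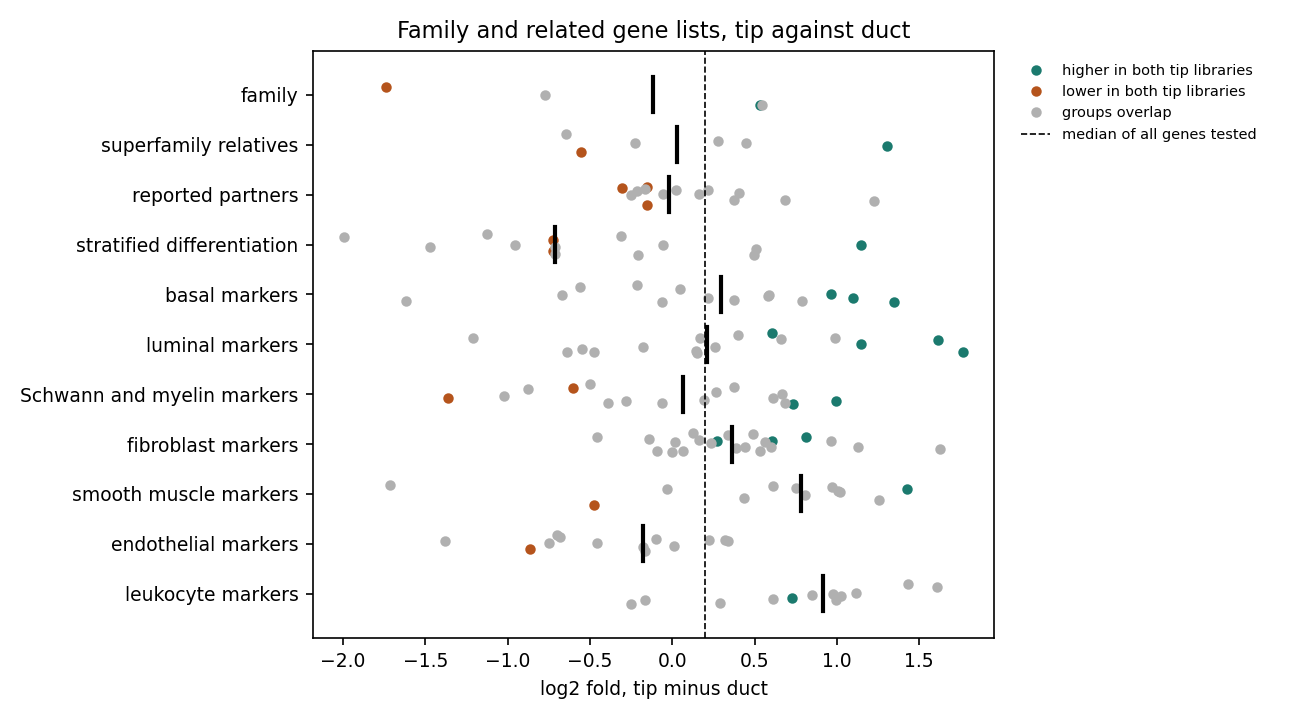
Log2 fold, tip minus duct (horizontal axis), of each tested gene in the family and in 10 related lists (rows); colour shows whether the groups overlap, black bars are list medians and the dashed line is the median of all genes tested, 0.20. The stratified differentiation list has its median at -0.71 and Emp1 lies at -1.74.

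The genes whose pattern over the 4 libraries was most like that of a member were found by the smallest distance between centred log2(CPM + 1) values, among the 6589 genes averaging 20 CPM or more. For Emp1 these were Ndrg1, a stress-responsive gene (91.8 and 170 CPM in tip, 317.6 and 323.5 CPM in the ducts, distance 0.41), Slc1a2, a glutamate transporter (8.35 and 21.3 against 54.9 and 41.6 CPM, 0.44), and Ncs1, a calcium sensor (18.1 and 26.4 against 55.5 and 66.6 CPM, 0.46). For Emp2 they were Numa1, a spindle pole protein (420 and 300 against 260 and 223 CPM, distance 0.034), Fam32a (0.041) and Zyg11b (0.043). For Emp3 they were Hip1, an endocytic adaptor (45.2 and 47.1 against 8.95 and 79.8 CPM, 0.22), Dpysl2 (0.28) and Dpysl3 (0.31). For Pmp22 they were Fam49a (0.089), Fst, which encodes the activin antagonist follistatin (40.4 and 95.9 against 62.5 and 216 CPM, 0.18), and Arfgef3 (0.26). Distances grow with how much a gene varies and are not compared between members. With 4 libraries such likeness rests on few points.

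**Figure D5:**
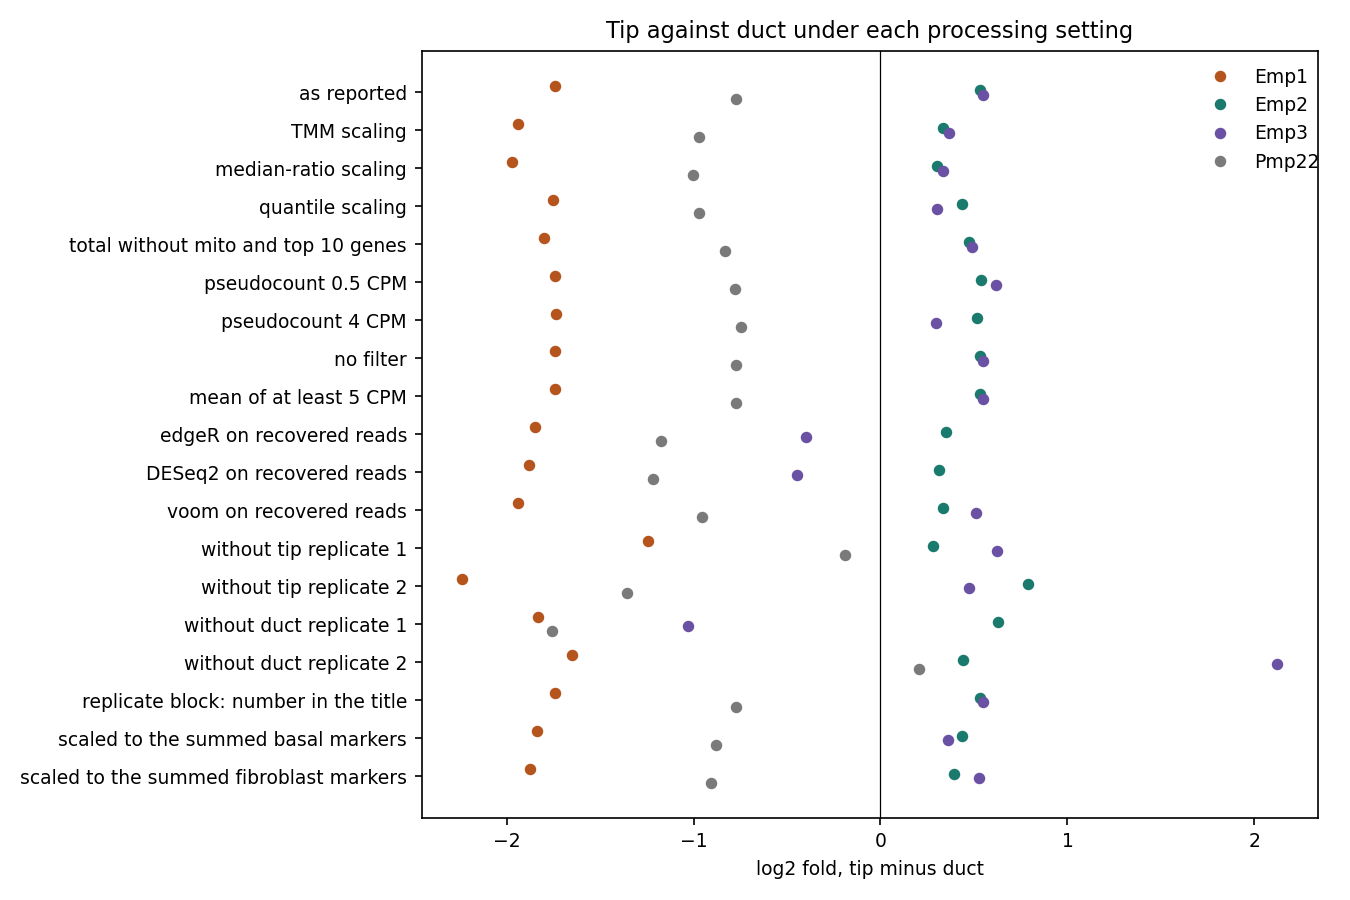
Log2 fold, tip minus duct (horizontal axis), of the 4 members under each processing setting (rows). Emp1 lies between -2.24 and -1.25 under every setting drawn, Emp2 between 0.28 and 0.79, and Emp3 and Pmp22 cross 0 when a duct library is left out, as Emp3 does with edgeR and DESeq2.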

How the data were processed

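RNA-seq was measured in 4 libraries, 2 of tip and 2 of duct basal cells. Per the labels' protocols, RNA came from a micro-column kit and libraries from the Ovation SoLo system. STAR, HTSeq and the build GRCm38 (mm10) are named in the submitters' processing notes, without versions; a strand setting is not stated there. The authors' deposited signal is reads per gene scaled to 20008326 to 20011820 per library and rounded up, as found from the values. At least 99.995% of values were whole multiples of the worth of 1 read (tolerance 0.1 read), and at least 99.88% were returned exactly when the reads were scaled again. CPM is the deposited value divided by 20. Exon lengths came from GENCODE M21, which matched 49412 of 49671 identifiers.

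Genes averaging 1 CPM or more entered a limma 3.58.1 fit (R 4.3.3) of log2(CPM + 1) on group, 2-sided, moderated robustly around a variance trend, with Benjamini-Hochberg adjustment over all genes at 0.05. This step was tested on simulated reads with 200 changed genes among 17865. Of genes changed 4-fold it recovered 49%, and it called 17 unchanged genes. Of genes changed 16-fold it recovered 97.5%, and it called 20 unchanged genes. edgeR 4.0.16, DESeq2 1.42.0 and voom were run on recovered reads as alternatives, beside other scalings, pseudocounts and filters, each library left out, and a block. Intervals are 95% and were computed with scipy 1.17.1. An exact permutation test of 2 against 2 was not used. Members, lists and motifs were chosen with earlier results of these data known. From each list, the text names up to 4 genes with the smallest p, defining markers of a cell type, and genes said to be named after their values were seen. For each member it names the 3 genes of nearest pattern, leaving out predicted and pseudogene models. Luminal cells were not analysed here.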

Additional observations from a re-analysis of the deposited data

How the results depend on the processing

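Over 16 alternatives planned with earlier results known, the Emp1 log2 fold kept its sign, which the choice of the family fixed and which shows no stability, between -2.24 and -1.25, and so did that of Emp2, between 0.28 and 0.79. Under the 4 other scalings Emp1 ran from -1.97 to -1.75, Emp2 from 0.30 to 0.48, Emp3 from 0.30 to 0.49 and Pmp22 from -1.002 to -0.83. Emp3 turned to -0.40 with edgeR and -0.45 with DESeq2, the direction of its mean CPM, 14.7 in the tips and 16.8 in the ducts. The cause was not tested. Leaving out 1 library gave -2.24 to -1.25 for Emp1, 0.28 to 0.79 for Emp2, -1.03 to 2.12 for Emp3 and -1.75 to 0.21 for Pmp22, with the lone library of a group assumed to vary like the others. With no filter 62 genes passed in limma as higher and 32 as lower in tip, and 2 passed in DESeq2 as lower. Leaving out 1 library gave 0 to 679 genes higher and 0 to 430 lower: 471 and 430 without duct 1, 679 and 199 without duct 2, and 0 without either tip library. With the number in the title as a replicate block, 0 genes were called in either direction and the member folds were the same as without it. The labels do not say that the numbers pair the libraries, and deviations of same-numbered libraries had a correlation of 0.15 across genes. Of 80 counts of list members under other scalings, 66 stayed within 1.5 times the value reported. Emp3, with 4 to 47 reads per library, is the member most limited by depth.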

Other observations

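Dcn, which encodes the matrix proteoglycan decorin, measured 2529 and 2656 CPM in the tips and 2002 and 2294.5 CPM in the ducts. Of the 22 fibroblast markers, 3 including Dcn had both tips above both ducts, beside 28.5% of all genes tested. With TMM scaling 1 of the 22 did, beside 3647 of all 17865 genes. Col1a1, the main fibrillar collagen gene, measured 956 and 3361 against 274 and 5922 CPM. Vim, the mesenchymal intermediate filament, measured 327 and 430 against 91.2 and 1505 CPM. Fbln2, a fibulin, was the 1 marker higher in duct 1 than in duct 2, at 277 and 146 CPM. In the leukocyte list, Cd3e, a T cell receptor subunit, measured 131 and 88.4 CPM in the tips and 61.3 and 68.6 CPM in the ducts, whereas Cd3g of the same receptor measured 11.2 and 4.05 against 7.05 and 1.35 CPM, and Ptprc 0.60 CPM in tip 2. Among smooth muscle markers, Acta2 measured 550 and 1264 against 155 and 787 CPM while Tagln, usually abundant in the same cells, measured 5.60 and 13.2 against 1.3 and 4.65 CPM. These genes were chosen after their values were seen, and the causes were not tested.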
